A study of Mus musculus with 35 samples.

Results

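The small intestine of PPARα-null mice was compared 6 h after a gavage of trieicosapentaenoin, a triacylglycerol that carries 3 molecules of eicosapentaenoic acid (EPA), and after the same volume of tridocosahexaenoin, which carries 3 molecules of docosahexaenoic acid (DHA). The comparison rested on 9 of the 35 arrays of the series, 5 from EPA-treated and 4 from DHA-treated mice, with RNA from the whole small intestine of a single mouse on each. The arrays were chosen by genotype and treatment as labelled, and every expressed probeset was tested. Probesets counted as expressed if the mean of any of the 8 groups lay above 32 (log2 5), which kept 15384 of 45037 probesets and 8626 genes. Values are expression estimates on the log2 scale, so a difference of 1 is a 2-fold change, and differences are EPA minus DHA.

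The study gave OA (triolein), EPA, DHA or the synthetic PPARα agonist WY14643 to wild-type and PPARα-null mice, to find which intestinal genes respond through PPARα. EPA and DHA were each given to PPARα-null mice of substrain 129S4/SvJae (5 and 4 mice) and to wild-type mice of substrain 129S1/SvImJ (5 and 5 mice), so genotype and substrain cannot be told apart. All were 4-month-old males that had been kept for 2 weeks on an AIN76A diet with olive oil in place of corn oil, had been fasted for 4 h and had received 400 µl of oil. No mouse without a gavage was analysed here, so EPA was set against DHA and not against an untreated state.

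PPARα is a nuclear receptor that binds fatty acids and switches on genes of fatty acid oxidation and transport, and in the intestine its targets answer to dietary fat within hours. EPA has 20 carbons and 5 double bonds, and DHA has 22 carbons and 6 double bonds. Both are omega-3 fatty acids of fish oil, both bind PPARα, and both also act outside it, on other nuclear receptors, on sterol sensing at the endoplasmic reticulum and as precursors of lipid mediators. The PPARα-null mice show which differences between the oils are found without this receptor.

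The genotype labels were checked first. The probeset of Cyp4a10, a strongly PPARα-dependent fatty acid hydroxylase (the probeset also matches Cyp4a31), stood at 2.03, 1.68, 1.94, 1.81 and 9.91 in EPA replicates 1 to 5, against 1.36, 2.497, 2.41 and 2.15 in DHA replicates 1 to 4. A Ppara probeset (1 of 3) gave 5.82, 4.58, 4.92, 5.82 and 7.83 in the EPA arrays, against 5.97, 5.29, 6.56 and 6.07 in the DHA arrays. The array labelled PPARα-null EPA replicate 5 was therefore high in both, at levels found in wild-type mice, where the Cyp4a10 probeset had a median of 8.43 after EPA and 9.51 after DHA. In the other groups, 1 wild-type EPA array (replicate 5, 1.81) and 1 PPARα-null OA array (replicate 1, 10.6) also went against their labels. Whether labels were exchanged was not tested. If the array labelled EPA replicate 5 came from a wild-type mouse, the values with all arrays include that mouse, and those without it do not. Counts are given both ways, and the value without that array is given for each gene whose difference is described and whose call changed. The medians of the 35 arrays lay between 2.83 and 2.88, and between 31.99 and 32.38% of the probesets of the 9 arrays exceeded 32. Of 10 enterocyte markers, 9 were on the array and all 9 were expressed, with a summed level of 92160 to 106976 in EPA arrays and 97627 to 108878 in DHA arrays. No expressed marker of the 21 cell types examined passed the test between the oils. Some types had little to test. Erythrocytes had 0 expressed markers, and hepatocytes and skeletal muscle 1 each. Mast cells, neutrophils and eosinophils, and enteric neurons and glia had 2 per list.

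In PPARα-null mice, few genes passed the test between EPA and DHA, and most of those that passed were higher after EPA. With all 9 arrays 62 of 8626 genes passed (0.719%), 49 of them higher (0.568%) and 13 lower (0.151%) in EPA-treated mice. An unadjusted p under 0.01 in limma was found for 383 genes, 223 higher and 160 lower, and one under 0.05 for 1055 genes. The genes with higher levels after EPA included Ido1, which encodes the enzyme that opens the breakdown of tryptophan, the immediate early genes Egr1 and Maff, and the matrix metalloproteinases Mmp10, Mmp12 and Mmp13. Those with lower levels included the clock gene Per3, the sulfotransferase Sult1a1 and the cytokine receptor Lifr. With means below 32 set to 32, 14 of the 62 genes differed by more than 2-fold. The groups did not overlap in 50 of the 62, against 2.74% of all genes on their probeset of highest mean. As the same arrays chose the 62 genes, this is a description and adds no support.

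Without the array labelled EPA replicate 5, 38 genes passed (0.441%), 28 higher (0.325%) and 10 lower (0.116%). The fits shared 35 genes, which are 56.5% of the 62 and 92.1% of the 38. Another 27 passed with all arrays only, and Lhfpl2, Pank3 and Acox2 passed only without that array. The tests used a spread pooled over the 8 groups of the series. With the spread of the EPA and DHA groups alone, Ido1 passed with all arrays. Without the array labelled EPA replicate 5, limma then called 0 genes, while 688 had an unadjusted p under 0.05. With the spread of the 4 PPARα-null groups Ido1 and Pmepa1 passed in both fits. Leaving out DHA replicate 3 left 32 genes, and 1 gene (Ido1) when the array labelled EPA replicate 5 was left out too. Of the 62 genes, 18 passed whichever of the 9 arrays was left out, and of the 38 genes, Ido1 alone did so.

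**Figure D1:**
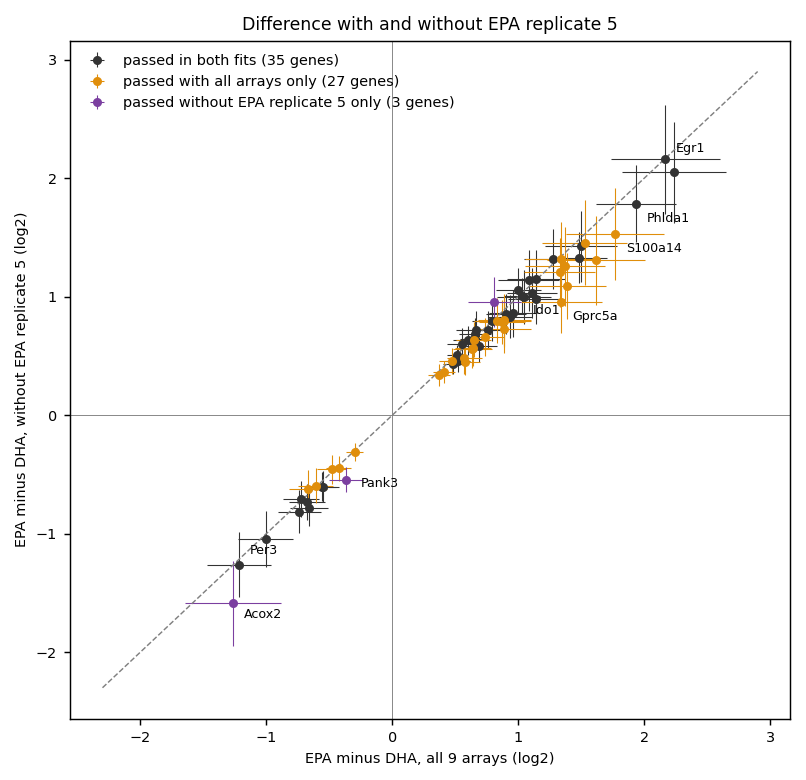
EPA minus DHA difference (log2) of the 65 genes that passed in either fit, with all 9 arrays (x axis) and without the array labelled EPA replicate 5 (y axis), each with its limma standard error; dark genes passed in both fits, orange ones with all arrays only, violet ones only without that array, and the dashed line marks equal values. Differences kept their sign in all 65 genes, and Gprc5a lay at 1.34 with all arrays and 0.95 without that array.

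Ido1 had the smallest p of all genes. It stood at 8.20, 8.25, 8.32, 8.06 and 8.32 in EPA replicates 1 to 5, against 7.32, 7.30, 7.15 and 7.03 in DHA replicates 1 to 4. The groups did not overlap. Ido1 was 2.04-fold higher after EPA (difference 1.03, SE 0.14, adjusted p = 0.000647), with a difference of 1.01 (adjusted p = 0.00401) without the array labelled EPA replicate 5 and adjusted p-values up to 0.00657 when any other array was left out. Its mean was 7.83 in OA-treated and 7.12 in WY14643-treated PPARα-null mice.

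Other genes of immunity and inflammation were higher after EPA. Cd55, a cell-surface inhibitor of complement, was 2.21-fold higher (1.14, adjusted p = 0.00944), although 1 EPA array (replicate 2, 7.81) lay within the DHA range of 7.32 to 7.86. Plscr1, a phospholipid scramblase that interferon induces, was 2.21-fold higher (1.14, adjusted p = 0.0126), and its 5 EPA arrays (9.62 to 10.48) lay above the 4 DHA arrays (8.72 to 9.41). Clec7a, the receptor dectin-1 through which myeloid cells sense fungal β-glucan, had an EPA mean of 5.36 ± 0.40 and a DHA mean of 4.28 ± 0.43 (SD, n = 5 and 4; adjusted p = 0.0274). As the DHA mean lay below 32, where estimates are of uncertain size, the fold is given as at least 1.28. Il1rn, the antagonist of the interleukin 1 receptor, passed with all arrays (at least 1.29-fold higher, adjusted p = 0.0486) but not without the array labelled EPA replicate 5 (adjusted p = 0.155), nor with the replicate number as a block (adjusted p = 0.0947). The call of Cd55 came from 1 of 2 expressed probesets, and the stronger one differed by 0.59 (adjusted p = 0.106). That of Plscr1 came from 1 of 3, and the other 2, of higher signal, differed by 0.40 and 0.39 (adjusted p = 0.474 for both). Cd55 passed in every fit that left out 1 array, Plscr1 lost its call without DHA replicate 3 (adjusted p = 0.0597), and Clec7a and Il1rn each lost theirs in 6 of the 9 such fits. Without the array labelled EPA replicate 5, Cd55 lost its call in 6 of the 8 fits that left out 1 more array. The block then took Cd55 just past the threshold (adjusted p = 0.0515).

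Il1rn was the sole member that passed among the 20 expressed genes of a list of inflammation and NF-κB targets. The median difference over the list was 0.0956, against -0.00447 over all genes tested, and 13 of the 20 had a higher mean after EPA. Its mean level per array did not overlap between the oils (7.7595 to 7.90 in EPA arrays and 7.39 to 7.7590 in DHA arrays). The lowest EPA and the highest DHA array nearly met. Cxcl16 (0.40, adjusted p = 0.0856) and Socs3 (1.17, adjusted p = 0.348) had higher means after EPA and did not pass. Of 38 expressed genes on a list of interferon-induced genes, which did not hold Plscr1 or Ido1, none passed in PPARα-null mice. Of the 38, 30 had a higher mean after EPA (median 0.0603), and Cxcl10 (0.83, adjusted p = 0.0723) and Oasl1 (0.67, adjusted p = 0.0985) had the smallest p. In whole tissue, fewer cells of a type and less RNA per cell cannot be told apart. The summed level of 12 macrophage and dendritic cell markers was 5683 to 6847 in EPA arrays and 5425 to 6296 in DHA arrays, 8 of its 10 expressed markers had a higher mean after EPA and none passed, and the part of these cells in the differences was not tested.

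Egr1 had the largest difference among genes above 32 in both groups. This immediate early transcription factor, which growth factors and stress induce within minutes, stood at 10.29, 8.35, 8.43, 8.97 and 9.05 in EPA replicates 1 to 5, against 7.01, 7.58, 6.31 and 6.52 in DHA replicates 1 to 4. The groups did not overlap, and EPA replicate 1 was the highest array. The difference was 2.17 (SE 0.43, 4.49-fold, adjusted p = 0.0126) and 2.16 without the array labelled EPA replicate 5 (adjusted p = 0.0349), and the call was lost without DHA replicate 3 (adjusted p = 0.0597). Without the array labelled EPA replicate 5 it was also lost with the replicate number as a block (adjusted p = 0.0515).

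Phlda1, which growth factor signalling induces, stood at 11.06, 9.14, 10.41, 10.51 and 11.04 in EPA arrays, against 9.03, 8.58, 7.65 and 8.72 in DHA arrays. EPA replicate 2 lay only slightly above DHA replicate 1. Its level was 3.83-fold higher after EPA (1.94, adjusted p = 0.00346), and 1.78 on the log2 scale without the array labelled EPA replicate 5 (adjusted p = 0.0160). Maff, a small MAF transcription factor, stood at 6.07, 5.38, 5.74, 5.77 and 6.10 in EPA arrays, against 4.32, 3.81, 4.42 and 4.72 in DHA arrays (at least 1.76-fold higher, adjusted p = 0.00944). Rhob, a small GTPase that growth factors and DNA damage induce, was 1.69-fold higher (0.76, adjusted p = 0.0126), and Klf10, a zinc-finger gene induced by TGF-β, was 1.52-fold higher (0.60, adjusted p = 0.00944). Hbegf, a ligand of the EGF receptor, was at least 1.53-fold higher (adjusted p = 0.0193), but not past the threshold without the array labelled EPA replicate 5 (adjusted p = 0.0660), EPA replicate 1 (adjusted p = 0.0712) or DHA replicate 4 (adjusted p = 0.0594). Phlda1, Maff and Klf10 passed whichever of the 9 arrays was left out, and Rhob lost its call without DHA replicate 2 (adjusted p = 0.0565). There were 8 such fits with the array labelled EPA replicate 5 left out too. Phlda1 and Klf10 lost their calls in 3 of these, Maff in 6 and Rhob in 7.

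Egr1, Rhob and Maff were the 3 members that passed among the 29 expressed immediate early genes, a list of genes that are transcribed at once after a stimulus. The median difference of the list was 0.37, and 25 of the 29 had a higher mean after EPA, against 48.6% of all genes. The mean level of the list was 8.69, 7.99, 8.12, 8.06 and 8.31 in EPA arrays, against 7.85, 7.65, 7.90 and 7.70 in DHA arrays, without overlap. Atf3 (1.31, adjusted p = 0.0501), Klf6 (0.67, adjusted p = 0.106), Fos (0.97, adjusted p = 0.198), Dusp6 (0.85, adjusted p = 0.231) and Myc (0.64, adjusted p = 0.244) had higher means after EPA without passing, and Id2 (-0.41, adjusted p = 0.275) a lower one. The median was 0.37 without the array labelled EPA replicate 5, 0.40 without DHA replicate 3 and 0.35 without both.

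Dmp1, an acidic phosphoprotein of bone and tooth matrix, had means of 5.30 ± 0.98 after EPA and 3.07 ± 0.41 after DHA (SD, adjusted p = 0.00797). Its DHA mean lay below 32, and the fold was at least 1.23, on a probeset whose probes may match other transcripts too. S100a14, a calcium-binding protein of epithelia, stood at 5.28, 5.78, 5.91, 6.42 and 7.06 in EPA arrays, against 4.52, 4.85, 3.02 and 4.90 in DHA arrays (at least 2.13-fold higher, adjusted p = 0.0234), and did not pass without the array labelled EPA replicate 5 (adjusted p = 0.0902). Gprc5a, an orphan receptor that retinoic acid induces, was 2.54-fold higher (1.34, adjusted p = 0.0463), with the array labelled EPA replicate 5 (9.41) as the highest and 1 overlapping array in each group. It did not pass without that array (adjusted p = 0.116), nor with the replicate block (adjusted p = 0.0825). Flrt3, a membrane protein of cell adhesion and FGF signalling, was 1.91-fold higher (0.93, adjusted p = 0.00944), with 7.66 to 8.27 in EPA arrays and 6.58 to 7.31 in DHA arrays. Its other expressed probeset differed by 0.64 (adjusted p = 0.434). 9130008F23Rik, a RIKEN gene with no role given in the annotation used, stood at 7.99, 7.58, 7.89, 8.29 and 7.67 in EPA arrays, against 7.25, 7.02, 6.37 and 6.91 in DHA arrays. The groups did not overlap, and the gene was higher after EPA with all arrays (adjusted p = 0.00761) and without the array labelled EPA replicate 5 (1.05, adjusted p = 0.0160).

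**Figure D2:**
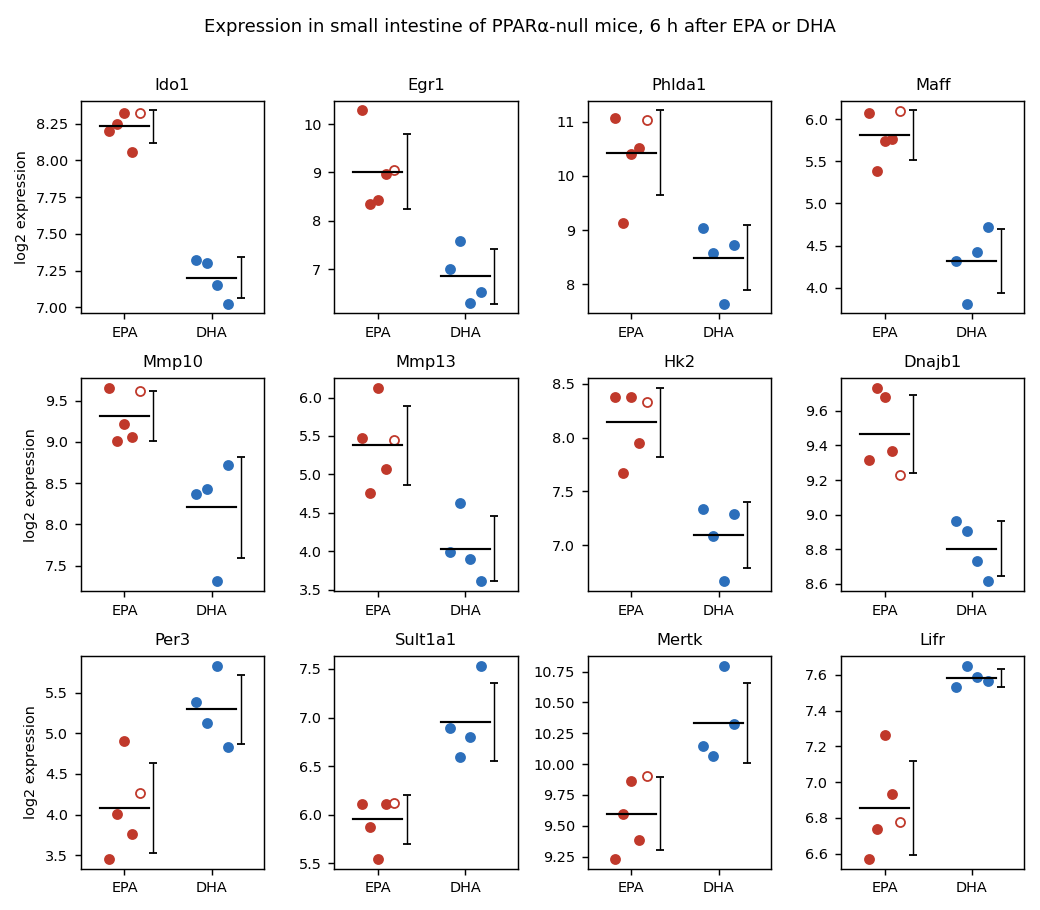
log2 expression of 12 genes in each array of PPARα-null mice, EPA on the left and DHA on the right of each panel; points are single mice, the open circle is the array labelled EPA replicate 5, horizontal lines are means and bars show 1 SD. Ido1 lay between 8.06 and 8.32 in EPA arrays and between 7.03 and 7.32 in DHA arrays, and Per3 is the panel in which 1 EPA array (4.91) reached into the DHA range.

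The 3 matrix metalloproteinases that passed, secreted enzymes that cleave collagen, elastin and other matrix proteins, were all higher after EPA. Mmp10 (stromelysin 2) stood at 9.66, 9.02, 9.22, 9.06 and 9.62 in EPA arrays, against 8.37, 8.43, 7.31 and 8.72 in DHA arrays, and was 2.16-fold higher (1.11, adjusted p = 0.00781), passing whichever of the 9 arrays was left out. With the array labelled EPA replicate 5 left out too, it lost its call in 3 of 8 such fits. Mmp12, the macrophage elastase, had means of 5.04 ± 0.56 after EPA and 3.66 ± 0.24 after DHA (SD, adjusted p = 0.0380), and Mmp13, the collagenase 3, had means of 5.38 ± 0.51 and 4.04 ± 0.42 (SD, adjusted p = 0.0204). The EPA arrays of each lay above the DHA arrays. The folds were at least 1.02 for Mmp12 and at least 1.30 for Mmp13, as their DHA means lay below 32. Neither passed without the array labelled EPA replicate 5 (adjusted p = 0.111 for Mmp12 and 0.0522 for Mmp13), and Mmp12 did not pass with the replicate block (adjusted p = 0.0690). Mmp12 lost its call in 8 and Mmp13 in 5 of the 9 fits that left out 1 array.

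Mmp10, Mmp12 and Mmp13 lie in 1 cluster of matrix metalloproteinase genes on chromosome 9, and each held a match to the AP-1 motif close to a start site, which is why their promoters are shown. AP-1 is the factor formed by FOS, JUN and MAF family proteins, the family of several of the immediate early genes. The stretches below run 5′ to 3′ on the plus strand of GRCm38.p6 (RefSeq), with the motif in capitals, at chr9:7502249-7502315, chr9:7347300-7347366 and chr9:7272449-7272513. The motifs begin 63, 44 and 35 bases before the start site.
Mmp10: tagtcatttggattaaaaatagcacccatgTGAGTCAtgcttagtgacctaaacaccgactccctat
Mmp12: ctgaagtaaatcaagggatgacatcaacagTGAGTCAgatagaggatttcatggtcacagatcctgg
Mmp13: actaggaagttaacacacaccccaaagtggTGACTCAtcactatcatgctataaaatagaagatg
The letters searched were TGANTCA on both strands, from 250 bases before to 50 bases after each start. They were held by 7.81% of 32851 promoters and by 8.97% of 27025 genes, by 7 of the 33 higher genes that had a promoter in the reference (Gja1, Il1rn, Mmp10, Mmp12, Mmp13, Sdcbp2 and Trim15) and by 1 of the 10 lower genes (Tomm20). A match of letters is a description and no evidence of binding.

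Prag1, a pseudokinase, stood at 8.63, 7.74, 8.80, 8.21 and 9.13 in EPA arrays, against 7.23, 7.17, 6.77 and 6.90 in DHA arrays, and was 2.80-fold higher (1.49, adjusted p = 0.00116). Ptpn12, a tyrosine phosphatase of focal adhesions, was 1.43-fold higher (0.51, adjusted p = 0.00335), and Tes, the focal adhesion protein testin, was 1.40-fold higher (0.49, adjusted p = 0.00356). The adaptor gene Shb (0.90, adjusted p = 0.00595), Trim15 (1.28, adjusted p = 0.00797) and the syntenin gene Sdcbp2 (0.52, adjusted p = 0.00876) were higher as well. All 6 passed whichever of the 9 arrays was left out. With the array labelled EPA replicate 5 left out too, there were 8 such fits. Prag1 then lost its call in 1, Ptpn12 in 2, Shb in 3, Tes and Trim15 in 4 and Sdcbp2 in 5. Gja1, which encodes connexin 43, was 1.39-fold higher (0.47, adjusted p = 0.0222), and Sema7a, a membrane-bound semaphorin, 2.62-fold higher (1.39, adjusted p = 0.0256), neither of them past the threshold without the array labelled EPA replicate 5 (adjusted p = 0.0656 and 0.0937). Hk2, the hexokinase that traps glucose in the cell, stood at 8.38, 7.67, 8.38, 7.95 and 8.33 in EPA arrays, against 7.34, 7.08, 6.66 and 7.29 in DHA arrays (2.07-fold higher, adjusted p = 0.0157). It lost its call without DHA replicate 3 (adjusted p = 0.0887) and, without the array labelled EPA replicate 5, with the replicate block (adjusted p = 0.0525). It was the sole gene to pass of 31 expressed genes of sugar transport and glycolysis, whose median difference was -0.0278.

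Pmepa1, which TGF-β induces and whose product restrains SMAD signalling, stood at 7.72, 7.80, 8.12, 7.88 and 7.88 in EPA arrays, against 7.19, 7.26, 7.29 and 7.21 in DHA arrays. The DHA arrays all lay between 7.19 and 7.29, and the difference of 0.65 (1.56-fold, adjusted p = 0.00356) was also 0.65 without the array labelled EPA replicate 5 (adjusted p = 0.0160). Acvr1, a type I receptor for bone morphogenetic proteins, was 1.33-fold higher (0.41, adjusted p = 0.0196, and 0.0741 without that array). Tgfbr3, the co-receptor betaglycan, was 1.47-fold lower (-0.56, adjusted p = 0.0164), and lost its call without EPA replicate 3 (adjusted p = 0.0624) or DHA replicate 4 (adjusted p = 0.0789). Lifr, the receptor of leukaemia inhibitory factor, stood at 6.57, 6.74, 7.27, 6.94 and 6.78 in EPA arrays, against 7.54, 7.65, 7.59 and 7.56 in DHA arrays. It was 1.66-fold lower after EPA (-0.73, adjusted p = 0.0119), and it was the sole lower gene that passed whichever array was left out.

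Of the chaperone genes, 2 were higher after EPA. Dnajb1, the HSP40 co-chaperone, stood at 9.32, 9.73, 9.68, 9.37 and 9.23 in EPA arrays, against 8.96, 8.90, 8.73 and 8.62 in DHA arrays, and was 1.58-fold higher (0.66, adjusted p = 0.0356). Hspa8, the constitutive HSC70, passed through 1 of its 4 expressed probesets (1.53, adjusted p = 0.0243), while its probeset of highest signal differed by 0.15, and it did not pass without the array labelled EPA replicate 5 (adjusted p = 0.0741). Zfand2a, a zinc-finger gene induced by heat and arsenite, was 1.94-fold higher (0.96, adjusted p = 0.0126), and lost its call without DHA replicate 2 (adjusted p = 0.0515). Dnajb1 and Hspa8 were the 2 genes that passed of 25 expressed heat shock genes. They lost their calls in 5 and 6 of the 9 fits that left out 1 array. The list had a median of 0.148 and 22 higher means, and its array means overlapped. The heat-inducible Hspa1b had the largest difference of the list without passing (1.71, adjusted p = 0.231).

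Among the lower genes, Per3, a repressor of the circadian clock, stood at 3.45, 4.00, 4.91, 3.76 and 4.26 in EPA arrays, against 5.38, 5.13, 5.83 and 4.83 in DHA arrays. EPA replicate 3 lay above the lowest DHA array. As the EPA mean lay below 32, Per3 was at least 1.23-fold lower after EPA (-1.22, adjusted p = 0.0195), with -1.26 without the array labelled EPA replicate 5 (adjusted p = 0.0368). The call was lost in 4 of the fits that left out 1 array, at most with adjusted p = 0.108 (DHA replicate 3). Per3 was the sole gene that passed of 18 expressed clock and clock output genes, of which 13 had a lower mean after EPA, with a median of -0.39. Cry2 (-0.92, adjusted p = 0.0922), Tsc22d3 (-0.81, adjusted p = 0.221), Per2 (-0.74, adjusted p = 0.312), Usp2 (-0.76, adjusted p = 0.324) and Hlf (-0.76, adjusted p = 0.328) had lower means and did not pass. The mean of the list was 7.55 to 8.09 in EPA arrays and 7.85 to 8.53 in DHA arrays, and its median was -0.40 without the array labelled EPA replicate 5 and -0.21 without DHA replicate 3.

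The D-box, through which clock output factors such as DBP and HLF act, was found 2 times in the Per3 promoter and is shown for that reason, on the minus strand of chromosome 4 (GRCm38.p6, chr4:151044786-151044853 and chr4:151044833-151044900), with the motif in capitals 158 and 205 bases before the start.
Per3, first match: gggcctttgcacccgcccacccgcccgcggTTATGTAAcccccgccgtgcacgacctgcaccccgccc
Per3, second match: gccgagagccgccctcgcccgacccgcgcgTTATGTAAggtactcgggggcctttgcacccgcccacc
The letters TTANGTAA, read on both strands, were held by 2.32% of all promoters and 2.72% of all genes. Among the 10 lower genes with a promoter, Per3 and Sult1a1 held them. Of 14 genes of the clock list with a promoter, 1 held them, which was Per3.

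Sult1a1, a phenol sulfotransferase, stood at 6.11, 5.87, 5.54, 6.11 and 6.12 in EPA arrays, against 6.89, 6.60, 6.80 and 7.53 in DHA arrays. It was 2.01-fold lower after EPA (adjusted p = 0.0235), without overlap. It lost its call in 4 of the 9 fits that left out 1 array, at most with adjusted p = 0.120 without DHA replicate 4, and without the array labelled EPA replicate 5 under the replicate block (adjusted p = 0.0525). Sult1a1 was the sole gene to pass among 26 expressed genes that glucocorticoids or fasting induce, of which 19 had a lower mean after EPA, with a median of -0.26. Zbtb16 (-2.85, adjusted p = 0.0994) and Sgk1 (-0.87, adjusted p = 0.0614), both classic glucocorticoid targets, and the gluconeogenic genes G6pc (-1.39, adjusted p = 0.213) and Pck1 (-1.98, adjusted p = 0.311) had lower means without passing. The mean of the list was 7.95 to 8.16 in EPA replicates 1 to 4 and 8.61 in the array labelled EPA replicate 5, against 8.32 to 8.98 in DHA arrays. Without the array labelled EPA replicate 5 these did not overlap, and the median was -0.31.

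Mertk, a receptor through which macrophages take up dying cells, was 1.67-fold lower after EPA (9.23 to 9.91 in EPA arrays and 10.07 to 10.80 in DHA arrays, adjusted p = 0.0436), but its call was lost without DHA replicate 3 (adjusted p = 0.247) and in 5 other fits that left out 1 array. Atp8a1, a phospholipid flippase, was lower as well (-0.68, adjusted p = 0.0206). Its 5 expressed probesets all had lower means after EPA, but only 1 passed (adjusted p = 0.140 to 0.474 for the others). The call was lost in 3 of the 9 fits that left out 1 array, at most with adjusted p = 0.114 (DHA replicate 4). Abca8a, a lipid transporter of the ABC family, was 1.46-fold lower (-0.55, adjusted p = 0.0370), and lost its call in 6 of the 9 fits that left out 1 array. Bora, an activator of Aurora A kinase, and Tomm20, an import receptor of the mitochondrial outer membrane, were lower by 0.67 and 0.61 (adjusted p = 0.0352 and 0.0356), and Tomm20 did not pass with the replicate block (adjusted p = 0.0543). Neither passed without the array labelled EPA replicate 5 (adjusted p = 0.0970 for Bora and 0.0793 for Tomm20), and each lost its call in 6 of the 9 fits that left out 1 array. Tomm20 passed on 1 of 6 expressed probesets, with means of 5.82 after EPA and 6.42 after DHA, and the other 5 differed by -0.0483 to 0.122. Of the 2 lower genes that passed only without the array labelled EPA replicate 5, Pank3, a kinase of coenzyme A synthesis, stood at 10.25, 10.45, 10.55, 10.34 and 11.28 in EPA arrays, against 10.93, 10.83, 10.96 and 11.05 in DHA arrays. It was lower by 0.54 without that array (adjusted p = 0.0204), and its difference was -0.37 with it (adjusted p = 0.327). Acox2, a peroxisomal oxidase of branched fatty acids and bile acid precursors, was lower by 1.59 (adjusted p = 0.0480) without it, and its difference was -1.27 (adjusted p = 0.155) with it. The EPA mean of Acox2 lay below 32 (4.21 with all arrays, against 5.48 after DHA), where estimates are of uncertain size. Without the array labelled EPA replicate 5, Pank3 lost its call in 4 and Acox2 in 5 of the 8 fits that left out 1 more array. In both genes the array labelled EPA replicate 5 was the highest EPA array.

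No gene of cholesterol synthesis passed, yet most of the list had higher means after EPA. SREBP2, a transcription factor that is released when membrane sterols are low, drives this pathway as a unit. Of its 22 expressed genes, 20 had a higher mean after EPA with all arrays and 22 without the array labelled EPA replicate 5, with medians of 0.39 and 0.43. The mean of the list was 8.92, 8.69, 8.77, 8.73 and 8.47 in EPA arrays, against 8.61, 8.29, 8.04 and 8.58 in DHA arrays. The array labelled EPA replicate 5 alone overlapped with the DHA arrays, of which DHA replicate 3 was the lowest. Without DHA replicate 3 the median was 0.24, and 0.35 without both.

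An unadjusted p under 0.01 was found for 6 of the 22, all with a higher mean after EPA, against 4.44% of all genes in either direction and 2.59% with a higher mean after EPA. Pmvk, the phosphomevalonate kinase, stood at 7.61, 7.20, 7.66, 7.78 and 7.24 in EPA arrays, against 7.05, 6.66, 6.30 and 7.06 in DHA arrays, without overlap (0.73, 95% interval 0.35 to 1.12, adjusted p = 0.0723). Hmgcs1, which makes HMG-CoA for the pathway, stood at 12.12, 11.89, 11.93, 11.75 and 11.30, against 11.31, 11.15, 10.62 and 11.58 (0.63, adjusted p = 0.228). Cyp51 (0.60, adjusted p = 0.192), Sc5d (0.33, adjusted p = 0.198), Msmo1 (0.45, adjusted p = 0.242) and Idi1 (0.47, adjusted p = 0.298) completed the group. Stard4, a sterol carrier under SREBP2 control, differed by -0.04. Of 18 genes of the list with a promoter in the reference, Hmgcs1 and Srebf2 held the sterol regulatory element TCACCCCA (both strands), which 1.56% of all promoters and 1.77% of all genes hold. It is shown for Hmgcs1 in capitals, 137 bases before the start on the plus strand of chr13:119690184-119690251 (GRCm38.p6).
Hmgcs1: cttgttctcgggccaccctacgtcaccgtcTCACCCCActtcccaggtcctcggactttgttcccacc

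**Figure D3:**
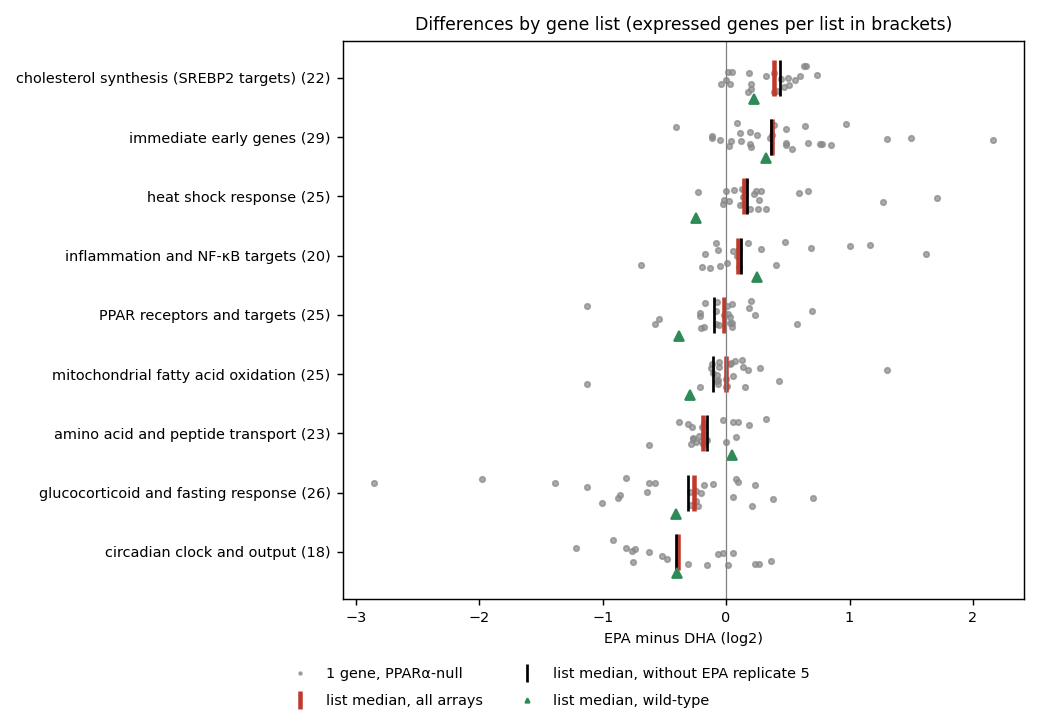
EPA minus DHA differences (log2, x axis) of the expressed genes of 9 lists in PPARα-null mice, 1 grey point for each gene, with the list median of all arrays (red bar), without the array labelled EPA replicate 5 (black bar) and in wild-type mice (green triangle). The cholesterol synthesis list has medians of 0.39 and 0.43, and the clock list medians of -0.39 and -0.40.

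Of the genes of fat handling, 4 strongly expressed ones had narrow intervals. Fabp1 and Fabp2, the fatty acid binding proteins of enterocytes, differed by 0.02 (95% interval -0.09 to 0.13) and 0.05 (-0.03 to 0.13). The apolipoprotein genes Apoa1 and Apoa4, which serve chylomicron assembly, differed by -0.08 (-0.20 to 0.03) and -0.03 (-0.14 to 0.07). Their levels lay near the highest value of the table, and whether differences are compressed there was not tested. None of 28 genes of triacylglycerol resynthesis and chylomicron assembly passed, and their median was -0.0441. Over all 8626 genes, the 95% interval of the difference lay within 2-fold for 95.8% and within 1.5-fold for 80.9%, with a median half-width of 0.27. A p that missed the threshold does not show that the oils acted alike.

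None of 25 PPAR receptors and common PPAR targets passed in either fit. Their median was -0.0165 with all arrays, with 12 of 25 higher in mean after EPA, and -0.0969 without the array labelled EPA replicate 5, with 5 of 25. Acaa1b, a peroxisomal thiolase, stood at 7.76, 8.32, 8.26, 8.07 and 11.49 in EPA arrays, against 7.57, 8.32, 8.88 and 7.56 in DHA arrays. Pdk4, which blocks glucose oxidation, stood at 6.68, 7.37, 6.37, 6.97 and 10.09, against 7.13, 8.19, 9.31 and 9.85. In both, the array labelled EPA replicate 5 was the highest of the 9. Without it Acaa1b differed by 0.02 (adjusted p = 0.998) and Pdk4 by -1.77 (95% interval -2.89 to -0.65, adjusted p = 0.206). Pparg, the receptor PPARγ, had a higher mean after EPA without passing (0.57, adjusted p = 0.148), as had the prostaglandin E2 receptor gene Ptger4 (0.51, adjusted p = 0.0501) among 30 expressed eicosanoid genes, none of which passed.

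The oxidation lists followed the same array. The mean of 25 genes of mitochondrial fatty acid oxidation was 9.69, 9.77, 9.65, 9.65 and 10.50 in EPA arrays, against 9.75, 9.87, 9.82 and 9.84 in DHA arrays, so its median changed sign, at 0.00277 with all arrays and -0.107 without the array labelled EPA replicate 5. The mean of 40 genes of peroxisomal oxidation and biogenesis was 7.79 to 7.93 in EPA replicates 1 to 4, 8.52 in the array labelled EPA replicate 5 and 7.95 to 8.17 in DHA arrays. The median was -0.103 without that array, with 7 of 40 higher in mean after EPA, and the groups then did not overlap. Acox2 was the sole gene that passed, in that fit.

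**Figure D4:**
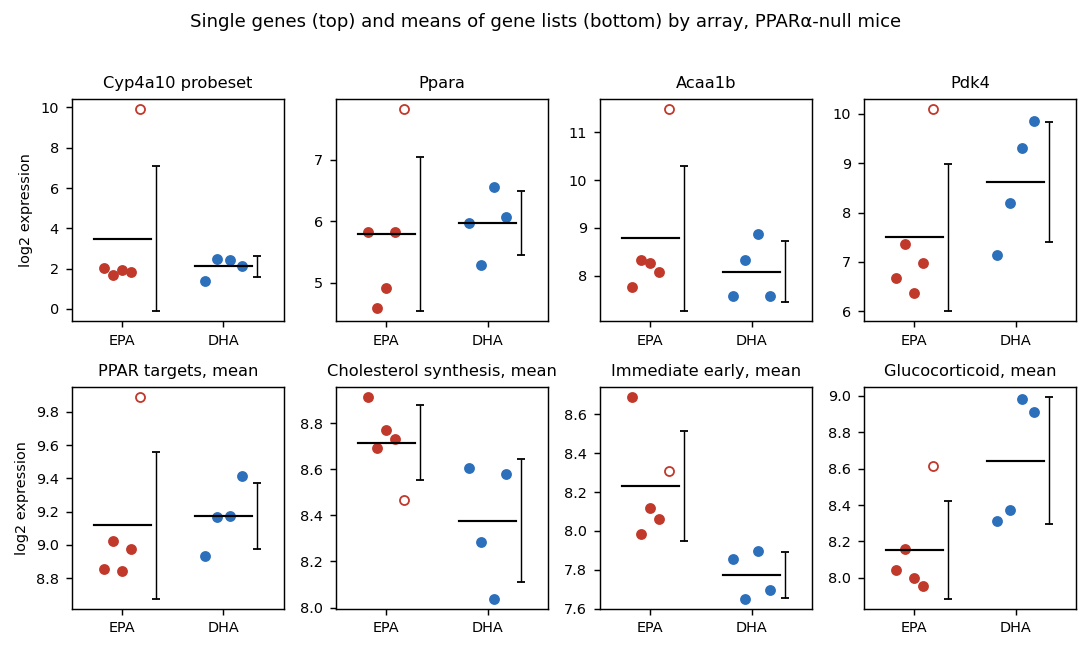
log2 expression by array in PPARα-null mice, EPA on the left and DHA on the right of each panel, for 4 genes (top) and for the means of 4 gene lists (bottom); the open circle is the array labelled EPA replicate 5, lines are means and bars 1 SD. That array stood at 9.91 on the Cyp4a10 probeset, where the other 4 EPA arrays lay between 1.68 and 2.03.

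Other lists differed by less or with less support. Of 23 expressed genes of amino acid and peptide transport none passed, 17 had a lower mean after EPA and the median was -0.19, and the array means of the list did not overlap (9.68 to 9.83 in EPA arrays and 9.85 to 10.03 in DHA arrays). With all arrays, every other list overlapped except those of immediate early genes and inflammation. Without the array labelled EPA replicate 5, the lists of cholesterol synthesis, glucocorticoid response, mineral absorption and peroxisomal oxidation did not overlap either. With fewer arrays groups separate more readily. Among single genes the groups did not overlap in 2.74% of all genes with all arrays and in 4.15% without that array. How readily list means separate was not tested. The median of amino acid transport was -0.11 without both the array labelled EPA replicate 5 and DHA replicate 3. Ribosome biogenesis had 35 of 43 genes with a higher mean after EPA (median 0.149), but -0.00169 without DHA replicate 3, and antigen presentation had 2 of 18 (median -0.0894), but 0.00144 without it. The respiratory chain, with 48 expressed genes, had a median of 0.0103. The mast cell protease gene Mcpt1 was high in DHA replicates 1 and 4 (6.22 and 7.91) and in EPA replicate 3 (5.54), and lay at 3.66 or below in the other arrays (adjusted p = 0.380). Of the 76 probesets that passed with all arrays, 8 had no gene name and 2 matched several genes. Of the 8, 7 were higher, the first by 2.37 (7.35 ± 0.55 in EPA and 4.98 ± 1.35 in DHA arrays, SD, adjusted p = 0.00944), and 1 was lower by 0.60 (adjusted p = 0.0392).

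The same comparison in wild-type mice shared no array with that in PPARα-null mice. In wild-type mice 62 genes passed as well (0.719%), 40 higher (0.464%) and 22 lower (0.255%) after EPA. Without wild-type EPA replicate 5, 25 passed (0.29%), 20 higher (0.232%) and 5 lower (0.058%). Both genotypes shared 11 genes, 17.7% of each list, all in the same direction, namely Ido1, Mmp12, Clec7a, Hbegf, Hk2, Rhob, Pmepa1, Sertad1 and Hsd17b2 (higher) and Lifr and Cdr2 (lower). Without EPA replicate 5 of both genotypes 5 genes were shared (Ido1, Pmepa1, Rhob, Clec7a and Lifr), which are 13.2% of 38 and 20% of 25. Ido1 was higher by 1.03 in PPARα-null and by 1.00 in wild-type mice (adjusted p = 0.000328 in wild-type mice), Pmepa1 by 0.65 and 0.66 (adjusted p = 0.00121), and Lifr differed by -0.73 and -0.70 (adjusted p = 0.00914). Of the 62 genes of PPARα-null mice, 59 had the same direction in wild-type mice (95.2%), against 57.5% of all genes tested. Without EPA replicate 5 of both genotypes the counts were 37 of 38 (97.4%) and 62.1%. Hspa8, Tomm20 and Bora had opposite signs, and without these arrays Acox2.

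A test of the difference between the genotypes found no gene. The interaction had 0 genes at an adjusted p under 0.05, with a smallest adjusted p of 0.744 in limma, while 695 genes had an unadjusted p under 0.05, and 393 without EPA replicate 5 of both genotypes. The smallest unadjusted p-values among the 62 genes were those of Tomm20 (0.00056), Bora (0.001) and Hspa8 (0.0011). Egr1 was higher by 2.17 in PPARα-null and by 0.66 in wild-type mice, but the difference between these values did not pass (adjusted p = 0.821). Of the lists, immediate early genes had medians of 0.37 in PPARα-null and 0.32 in wild-type mice, clock genes -0.39 and -0.40, and cholesterol synthesis 0.39 and 0.23. The heat shock list had 0.148 in PPARα-null mice and -0.245 in wild-type mice, and the PPAR list -0.0165 and -0.38, differences that were not tested.

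**Figure D5:**
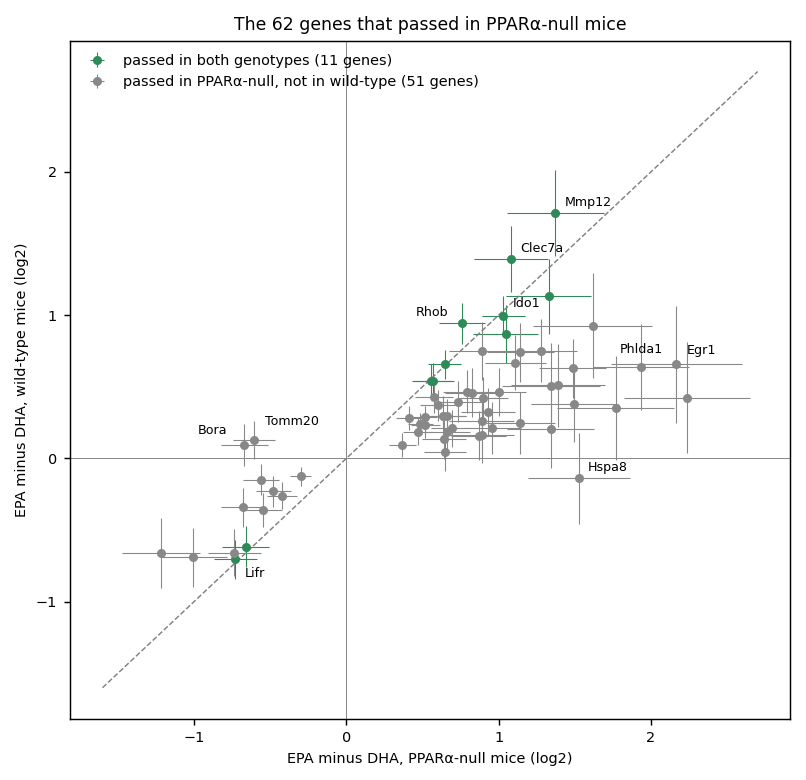
EPA minus DHA difference (log2) of the 62 genes that passed in PPARα-null mice, in PPARα-null mice (x axis) and in wild-type mice (y axis), with limma standard errors; green genes passed in both genotypes, and the dashed line marks equal values. Of the 62 genes, 59 lie on the same side of 0 on both axes, and Hspa8, Tomm20 and Bora do not.

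The levels in the other PPARα-null groups place the 62 genes between the treatments. The EPA mean exceeded the OA and the WY14643 mean in 48 of the 49 higher genes, all but Hbegf, while the DHA mean lay below both in 17. In all 13 lower genes the EPA mean lay below the OA and the WY14643 mean, and the DHA mean lay above both in 4. Without the array labelled EPA replicate 5, the EPA mean exceeded both in all 28 higher genes and lay below both in all 10 lower genes. The DHA mean lay below both in 11 of the 28 and above both in 3 of the 10. The OA mean includes the PPARα-null OA array that went against its label. WY14643 was given in a carboxymethyl cellulose suspension and not in oil. Phlda1 averaged 10.43 after EPA, 8.50 after DHA, 9.34 after OA and 7.27 after WY14643, and Hk2 8.14, 7.09, 6.91 and 6.15. Mertk averaged 9.60, 10.33, 10.19 and 10.93. As the EPA and DHA arrays chose these genes, the counts are a description and were not tested.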

How the data were processed

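RNA of 1 mouse was hybridised to each Affymetrix whole-genome mouse array. The values deposited by the authors are GCRMA expression estimates on the log2 scale, background-corrected, normalised between arrays and summarised per probeset, and the GCRMA version and probe definition are not given in the sources used here. Values ran from -0.174 to 15.0. No 2 arrays were identical, and the number of arrays limits the precision.

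Of 45101 probesets, 64 controls were left out, and of the other 45037 the platform annotation gave 34945 a single gene, 932 several and 9160 none. For all 35 arrays, limma 3.58.1 in R 4.3.3 was used on the 8 group means, with a prior that follows intensity. The Benjamini-Hochberg adjustment covered the 15384 expressed probesets. A gene passed when any of its expressed probesets with that single symbol had an adjusted p under 0.05. Every adjusted p in the text is from limma. The fit was tested on simulated data. Mice are separate animals, and the p-values rest on the spread between mice pooled over the 8 groups. That pool includes wild-type mice and, unless left out, the arrays that went against their genotype labels. Folds against a mean below 32 were taken against 32.

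Named were, for both fits, the 10 genes with the largest rise and fall and leading members of each list, not all of which are described. Mmp13, Hbegf, Cd55, Pmepa1, Klf10, Gprc5a, Flrt3, Ptpn12, Tes, Shb, Sdcbp2, Gja1, Acvr1, Zfand2a, Mcpt1 and list members that did not pass were picked with their values in view. The comparison, the arrays left out and all gene lists were chosen with earlier results of these data known. The alternatives were other filters, priors, scalings, array weights, subsets of groups and arrays, and the replicate number as a block. Same-numbered EPA and DHA arrays deviated together, with correlations of 0.362, 0.396, 0.116 and 0.254 for numbers 1 to 4. For number 3 an array of another number correlated more (0.321). The main fits took no account of such pairs, and the replicate number entered as a block in the alternatives only. The pairing rests on the data, since no label says what a number stands for. Promoters are RefSeq annotation of GRCm38.p6. In them 6 motifs were searched, and those shown were picked with the matches in view. The CRE, E-box and heat shock element, which are not shown, were held by 2, 4 and 0 of the 33 higher genes with a promoter. Over all genes the shares were 2.03%, 8.09% and 0.662%.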

Additional observations from a re-analysis of the deposited data

Results flagged for a closer look

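In 16 of the 228 groups of values examined (EPA and DHA arrays of 114 probesets), 1 array lay far from the others of its group by Dixon's ratio, a rule that chance meets in about 1 of 20 groups. The array labelled EPA replicate 5 was the highest EPA array for Cyp4a10 (9.91, others 1.68 to 2.03), Acaa1b (11.49, others 7.76 to 8.32), Pdk4 (10.09, others 6.37 to 7.37), Acadl (12.46, others 11.83 to 11.99) and Fabp2 (14.13, others 13.91 to 13.94). It was the lowest for Stard4 (10.56, others 10.97 to 11.12) and Socs3 (9.61, others 10.90 to 11.30). Among the other EPA arrays, replicate 1 stood out for Myc (7.04, others 6.47 to 6.60), replicate 2 for Hnrnpdl (8.88, others 9.13 to 9.22) and replicate 3 for Mcpt1 (5.54, others 3.01 to 3.45).

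DHA replicate 3 was the lowest DHA array for the 14-3-3σ gene Sfn (6.18, others 7.31 to 7.52), the collagen gene Col5a2 (6.06, others 6.63 to 6.65) and Idi1 (9.89, others 10.62 to 10.66). DHA replicate 4 was the highest for Gprc5a (7.09, others 6.24 to 6.35) and for the inositol phosphatase gene Inpp5b (10.27, others 10.11 to 10.13), and DHA replicate 2 was the lowest for Zfand2a (8.05, others 8.47 to 8.49).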

How the results depend on the processing

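The counts below are of genes, 62 with all arrays and 38 without the array labelled EPA replicate 5. Without a filter on the level, 34 and 10 passed. With the spread of only the EPA and DHA groups, 1 and 0 passed (unadjusted p under 0.05 for 700 and 688 genes), with only the 4 PPARα-null groups 2 and 2, and with array weights 41 and 27. Without the doubted arrays of other groups 71 and 59 passed, at an adjusted p under 0.01 17 and 2, and at an unadjusted p under 0.01 383 and 355. The replicate block gave 59 and 38 genes, of which 50 and 33 were shared with the unblocked fits. Apart from the calls given as lost beside their genes and those of Sfn, Plxna2, Lratd1, Pard6b, Hsd17b2, Hif1a, Hnrnpdl and Trp53inp1 (adjusted p = 0.0543 to 0.0947 over the 12 genes lost) and Abca8a (0.0525), it ended no call. Among genes named without their difference, Hsd17b2, Sfn, Plxna2, Lratd1, Pard6b, Inpp5b and Hnrnpdl did not pass without the array labelled EPA replicate 5 (adjusted p = 0.0581 to 0.145). A block within the EPA and DHA groups alone, added after the data were seen, gave 0 and 0 (limma, unadjusted p under 0.05 for 992 and 994 genes). Leaving out 1 array gave 32 (DHA replicate 3) to 81 (EPA replicate 2) genes with all arrays and 1 (Ido1, DHA replicate 3) to 51 (DHA replicate 2) without the array labelled EPA replicate 5, where EPA replicate 1 left 4, EPA replicate 3 left 6, DHA replicate 4 left 15 and EPA replicate 4 left 18. The interaction kept 0 genes in the 25 alternatives run for it, which were other filters, priors and scalings, the replicate block and arrays left out, with 393 to 1563 genes at an unadjusted p under 0.05 in limma. The other scalings, filters and priors kept the counts within 1.5 times, and no gene that passed changed sign under any alternative.

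Signs changed only in genes that differed by little. Fabp1 gave -0.0120 without the array labelled EPA replicate 5 and with the block in 2 groups (leave-one-out range -0.0120 to 0.0574). Stard4 gave 0.0532 under the same settings and 0.00771 with array weights (range -0.106 to 0.0532). Without the array labelled EPA replicate 5, Fabp1 gave 0.0148 with array weights and -0.0527 to 0.0295 when 1 more array was left out, Acaa1b -0.156 to 0.282, Fabp2 -0.00914 to 0.0244 and Stard4 -0.00915 to 0.0897. The causes were not tested. With 5 and 4 mice, the median 95% interval reached 0.27 to each side, and estimates below 32 carry little information on size.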

Other observations

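Some values on lists not described above follow. Of 49 expressed NRF2 and glutathione genes none passed in PPARα-null mice, with a median difference of 0.00190. None of 51 genes of the cell cycle and DNA replication passed (median 0.0402). Of 38 genes of xenobiotic metabolism, Sult1a1 passed, and 14 had a higher mean after EPA. Of 24 genes of growth arrest, p53 and apoptosis, Trp53inp1, a stress-induced p53 target, was 1.39-fold lower after EPA (8.86 to 9.27 in EPA arrays and 9.23 to 9.74 in DHA arrays, adjusted p = 0.0466), but not without the array labelled EPA replicate 5 (adjusted p = 0.114) or with the replicate block (adjusted p = 0.0740). Hif1a, the hypoxia-inducible factor, was 1.29-fold higher (11.40 to 11.77 in EPA arrays and 11.07 to 11.37 in DHA arrays, adjusted p = 0.0463), but not without that array (adjusted p = 0.125) or with the block (adjusted p = 0.0651). Both genes were picked with their values in view.

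The summed level of pancreatic acinar markers was 54413 to 134101 in EPA arrays and 62889 to 111630 in DHA arrays, and that of mast cell markers 75.9 to 119 in EPA arrays and 86.9 to 496 in DHA arrays, where DHA replicate 4 was the highest. Their part in the differences was not tested.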
